A study of Mus musculus with 6 samples.

Results

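Interferon-stimulated genes are genes switched on when a cell senses interferon, and 41 of them were followed here in the livers of ethanol-fed mice whose myeloid cells lacked the hyaluronan receptor CD44. They were taken by Ensembl identifier from the 54532 genes of the count table, and comprised 33 targets of type I interferon, 7 GTPases best known as targets of interferon-gamma, and Irf1, which answers both. All 41 were expressed highly enough to be tested. The knockout (KO) livers came from C57BL/6J/Rj mice with 1 LysMcre allele, in which Cre is expressed from the lysozyme gene Lyz2 of myeloid cells, and with both Cd44 alleles floxed. The livers labelled WT came from littermates with both Cd44 alleles floxed and no Cre. Each group had 3 mice, all given a liquid Lieber-DeCarli diet with 6% ethanol by volume for 10 days and a gavage of 5 g of ethanol per kg on day 11, and killed 9 hours after it. Whole liver was sequenced, so all values are means over every cell of the organ. No ethanol-free livers and no mice with Cre alone were analysed here, so loss of CD44 cannot be told apart from Cre itself or the altered Lyz2 allele. The labels and protocols used here state neither sex nor age.

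Type I interferons (the interferon-alpha family and interferon-beta) bind the receptor chains IFNAR1 and IFNAR2, and the kinases JAK1 and TYK2 then activate a complex with STAT2 and IRF9 that binds the interferon-stimulated response element (ISRE). Interferon-gamma binds IFNGR1 and IFNGR2, and JAK1 and JAK2 then signal to genes with a gamma-activated site (GAS). The type I targets include the 2'-5' oligoadenylate synthetases, the IFIT and Mx proteins, viperin and the ISG15 conjugation system, which restrict viruses. The guanylate-binding proteins (GBPs) and the immunity-related GTPases (IRGs) act on membranes that enclose intracellular bacteria and parasites, and type I interferon can raise them too. In liver, hepatocytes, Kupffer cells and sinusoidal endothelial cells all respond to interferon.

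ISRE and GAS letters were found in promoters of both classes. RefSeq promoters (GRCm38.p6, 250 bases before to 50 after the transcript start) were matched for 31 of the 41 genes, and were searched on both strands for ISRE letters (GAAANNGAAA, or TTTCNNTTTC on the other strand) and GAS letters (TTCNNNGAA). ISRE letters occurred in 20 of the 31 genes (64.5%), compared with 3.99% of 27025 RefSeq genes. They occurred in 6 of 6 GTPase genes and in 14 of 24 type I targets (58.3%). GAS letters occurred in 3 of 6 GTPase genes (50%) and in 5 of 24 type I targets (20.8%), against 9.55% of all RefSeq genes. Among type I targets, 6 of the 10 that were lower in KO livers (60%) and 8 of the 14 that did not pass the test (57.1%) had ISRE letters. A match describes letters only, not a bound site. The windows below are printed 5' to 3' on the gene's strand with the matched letters in capitals. They were chosen because they show an ISRE in genes that were lower in KO livers (Rsad2, Isg15, Oas1a and Bst2), in near-identical gene copies (Oas1g, Ifit3 and Ifit3b) and in GTPase genes that were not lower (Gbp7, Irgm1 and Igtp).
Rsad2, chr12:26456543-26456602, minus strand: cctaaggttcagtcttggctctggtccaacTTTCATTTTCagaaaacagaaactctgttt
Isg15, chr4:156200859-156200918, minus strand: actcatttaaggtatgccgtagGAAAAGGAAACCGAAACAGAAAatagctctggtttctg
Oas1a, chr5:120907526-120907585, minus strand: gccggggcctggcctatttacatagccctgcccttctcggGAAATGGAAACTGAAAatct
Oas1g, chr5:120887614-120887673, minus strand: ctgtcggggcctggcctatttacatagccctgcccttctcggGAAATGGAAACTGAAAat
Bst2, chr8:71537563-71537622, minus strand: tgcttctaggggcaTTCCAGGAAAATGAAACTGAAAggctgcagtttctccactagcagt
Ifit3, chr19:34583359-34583428, plus strand: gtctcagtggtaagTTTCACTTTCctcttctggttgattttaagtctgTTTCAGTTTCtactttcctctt
Ifit3b, chr19:34607755-34607824, plus strand: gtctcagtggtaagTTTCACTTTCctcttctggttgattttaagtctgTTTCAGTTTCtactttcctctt
Gbp7, chr3:142530216-142530305, plus strand: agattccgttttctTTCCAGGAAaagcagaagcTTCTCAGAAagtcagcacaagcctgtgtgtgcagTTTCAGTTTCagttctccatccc
Irgm1, chr11:48871421-48871480, minus strand: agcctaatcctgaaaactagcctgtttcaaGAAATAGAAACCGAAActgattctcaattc
Igtp, chr11:58199496-58199555, plus strand: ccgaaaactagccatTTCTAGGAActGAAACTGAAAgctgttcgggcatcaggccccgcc
In Isg15, Oas1a, Oas1g, Bst2 and Irgm1, neighbouring ISRE matches share 4 bases, so the capitals run together. In Bst2 the first capitals are a GAS match that shares 3 bases with the ISRE. The Gbp7 window holds 2 GAS matches and 1 ISRE match, and the Igtp window 1 of each. The 70 bases shown for Ifit3 and Ifit3b are identical. The Irgm1 window precedes the RefSeq start but lies inside the bounds that GENCODE gives the gene. The windows of Irf7, Cmpk2 and Oasl2, which were all lower in KO livers, held neither set of letters. Oas1a has a further GAS match outside its printed stretch.

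**Figure D1:**
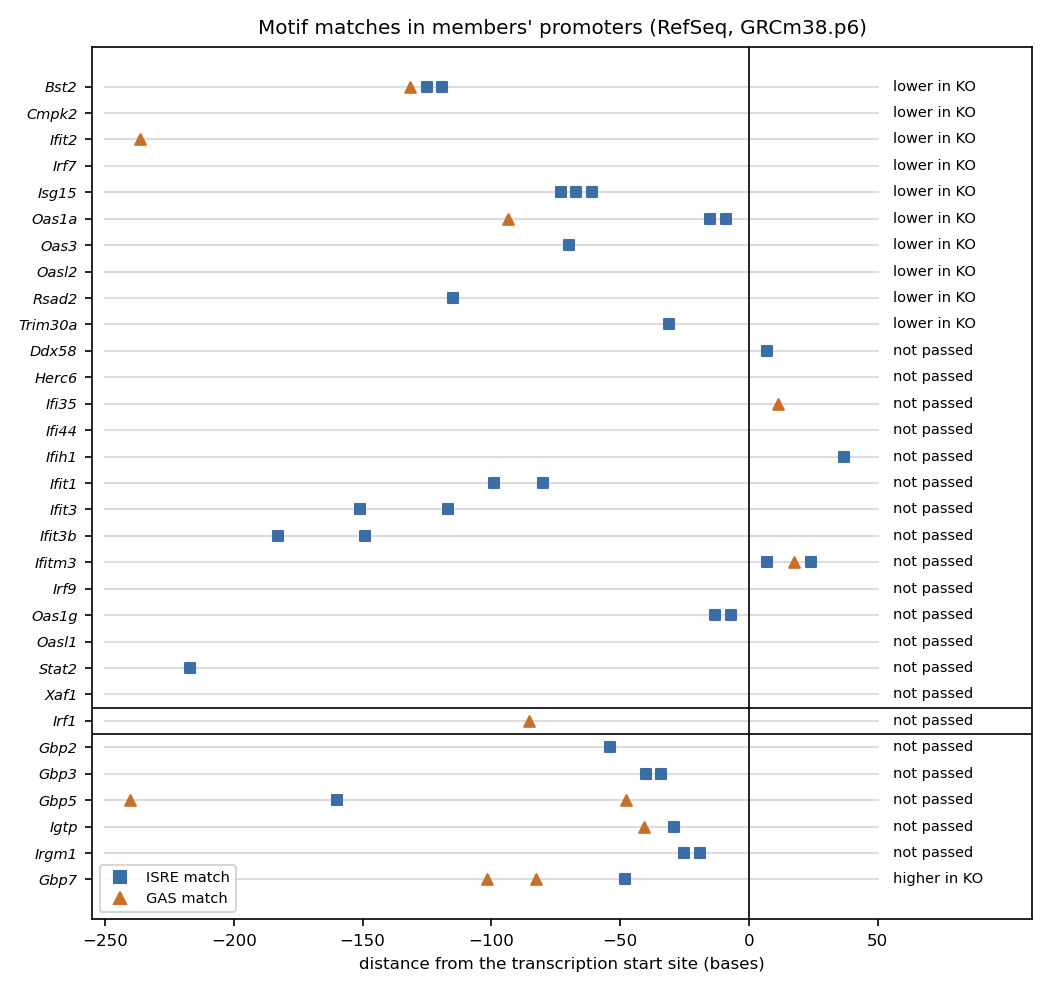
Positions of ISRE and GAS letters in the RefSeq promoter windows of 31 interferon-stimulated genes, in bases from the transcript start; each row is a gene, each mark the centre of a match, and the words at the right give the gene's call. ISRE letters stand in all 6 GTPase genes with a promoter and in 14 of 24 type I targets.

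Library totals were 22227098, 24042917 and 21521174 counts in KO livers 1, 2 and 3, and 23126828, 18428224 and 21621912 counts in WT livers. Cd44, the targeted gene, matched the labels in all 6 livers and stood at 2.11, 1.92 and 3.01 CPM (counts scaled to library size) in KO livers, against 32.6, 34.8 and 26.4 CPM in WT livers. Lyz2, the gene that carries Cre, was 4.48-fold lower in KO livers (adjusted p = 0.000756, edgeR's quasi-likelihood test). Across 14758 genes tested, 13.1% were lower and 11.9% higher in KO livers at an adjusted p under 0.05, and the median log2 fold change was -0.01. The 9 hepatocyte markers summed to 107000 to 147400 CPM in KO livers and 82110 to 96540 CPM in WT livers, so hepatocyte RNA was abundant in every library of the labelled tissue. The p-values measure the spread between 3 mice and 3 mice.

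Among the 41 genes, type I targets gave calls in the lower direction and GTPase genes in the higher one, while 25% of all genes tested passed in either direction. The 2 GTPase calls did not hold with every liver left out. Of the 33 type I targets, 13 were lower in KO livers (39.4%, beside 13.1% of all genes tested) and 0 were higher, with a median log2 fold change of -0.57 and a range of -2.20 to 0.27. Of the 7 GTPase genes, 0 were lower and 2, Gbp7 and Iigp1, were higher (beside 11.9% of all genes), with a median of 0.38 and a range of -0.73 to 0.64. Every KO liver was below every WT liver for 16 type I targets, a pattern seen in 22.5% of all genes tested, and for 1 GTPase gene (Gbp5). Every KO liver was above every WT liver for 0 type I targets and 3 GTPase genes (Gbp7, Iigp1 and Irgm1), a pattern seen in 21.4% of all genes. Irf1, the transcription factor shared by both pathways, had 21.0, 33.6 and 36.4 CPM in KO livers and 22.3, 29.0 and 33.2 CPM in WT livers, groups that overlapped (adjusted p = 0.764). The difference between the classes was not itself tested. Outside the 41 genes the medians were close, at -0.28 for 13 further GBP and IRG genes and -0.26 for 66 further type I targets. Of these, 7.69% and 28.8% were lower. In whole liver, fewer cells of a type and less RNA per cell cannot be told apart, and 11 of 12 shared myeloid markers were also lower in KO livers.

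**Figure D2:**
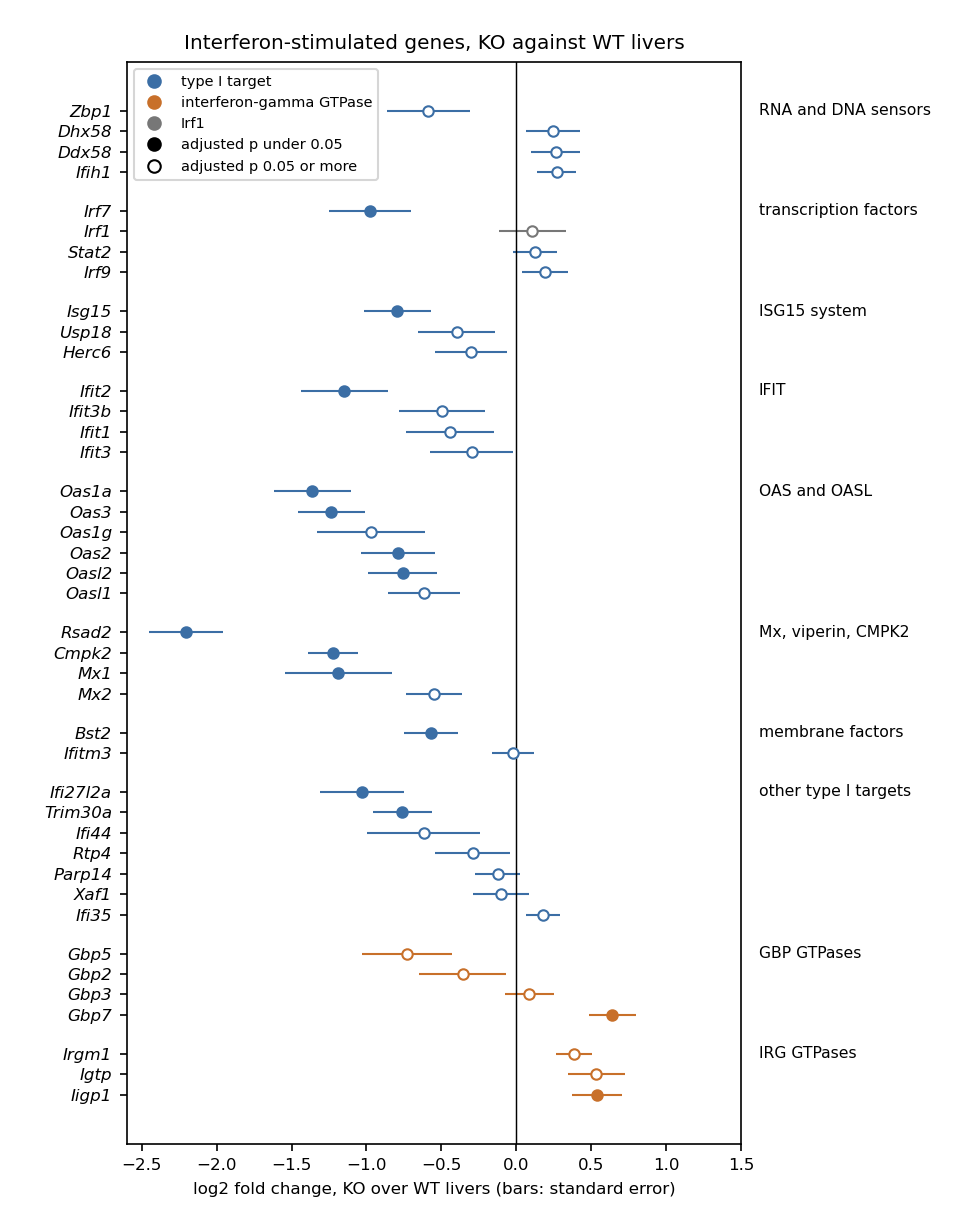
Log2 fold change (KO over WT) of each of the 41 genes with a bar of 1 standard error either way, ordered by role, with filled points for genes that passed at an adjusted p under 0.05. The 13 genes that were lower are all type I targets, and the 2 that were higher are the GTPase genes Gbp7 and Iigp1.

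The counts depended on the number of livers. With 1 liver left out, the number of lower type I targets was 10, 9 and 7 without KO liver 1, 2 or 3, and 6, 6 and 4 without WT liver 1, 2 or 3. Of all genes tested, 7.78%, 10.8% and 12.1% were lower without KO liver 1, 2 or 3, and 9.05%, 7.9% and 8.68% without WT liver 1, 2 or 3. The number of higher type I targets was 0 in each of these fits. The number of higher GTPase genes was 0, 2 and 2 without KO liver 1, 2 or 3, and 0, 0 and 3 without WT liver 1, 2 or 3. Of all genes tested, 7.32%, 9.2% and 10.4% were higher without KO liver 1, 2 or 3, and 8.42%, 7.21% and 9.05% without WT liver 1, 2 or 3. Without KO liver 3, 2 GTPase genes were lower. With scaling by library totals 0 GTPase genes were higher and 1 was lower. Rsad2, Cmpk2, Oas1a and Oas3 passed in each of the 13 alternatives other than the stricter threshold, and also at an adjusted p under 0.01. The median log2 fold change of the type I targets was -0.35 without KO liver 2, which held the lowest levels of most of them.

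The level of the 2 classes can be followed within each liver. The 33 type I targets summed to 1204, 995.6 and 1103 CPM in KO livers, against 1258, 1297 and 1502 CPM in WT livers, a sum weighted towards Ifitm3 and Bst2. Taking each gene relative to its WT mean on the scale log2(CPM + 0.5), the median type I target stood at -0.23, -1.13 and -0.42 in KO livers and at -0.03, -0.05 and 0.11 in WT livers. The 7 GTPase genes summed to 485.9, 472.9 and 437.7 CPM in KO livers, against 343.2, 285.4 and 383.1 CPM in WT livers. Neither sum overlapped between the groups, and Iigp1 made up most of the GTPase sum. These CPM divide each library total by a TMM scaling that differed by group. Its factors were 0.939, 0.865 and 0.944 in KO livers and 1.09, 1.124 and 1.065 in WT livers, which raises KO values relative to WT values. On the log2 scale the median GTPase stood at 0.50, 0.17 and 0.35 in KO livers and at -0.07, -0.04 and 0.15 in WT livers. KO liver 2 had the lowest median of the 3 KO livers in both classes, and for the GTPases it was close to WT liver 3.

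**Figure D3:**
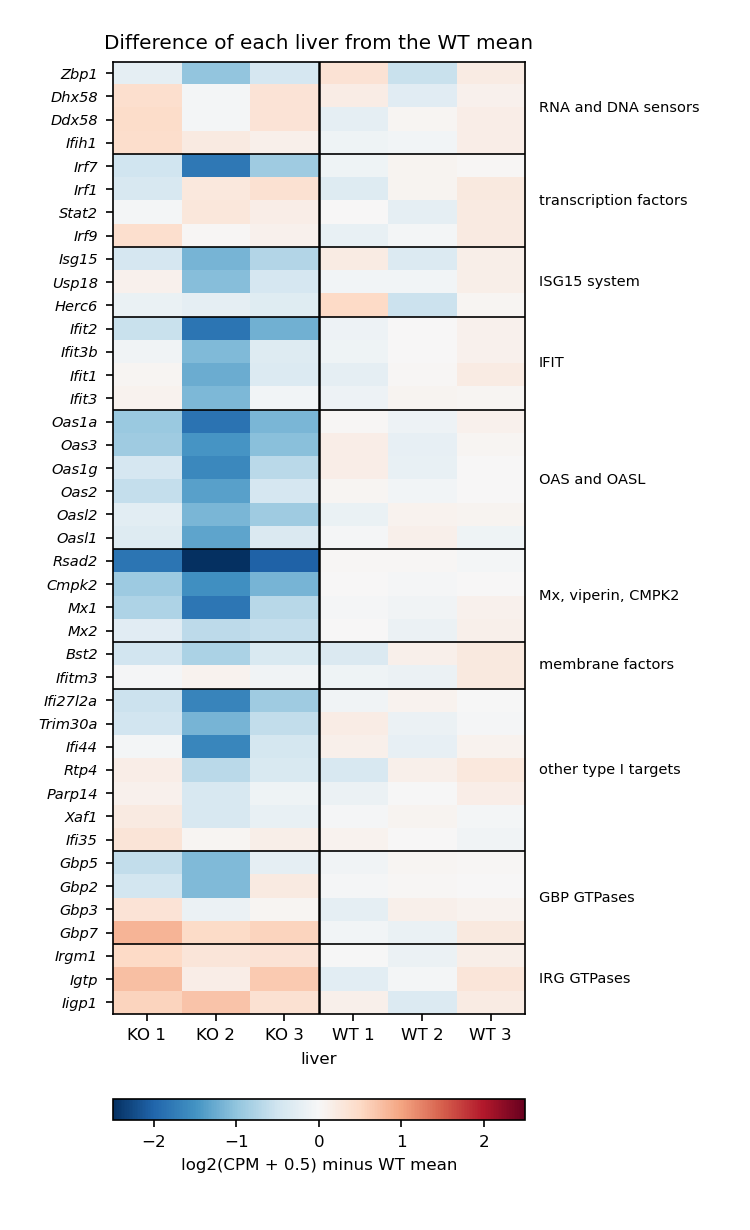
Each gene in each liver, as log2(CPM + 0.5) relative to the mean of the WT livers (blue below it, red above it), with KO livers 1 to 3 on the left and WT livers 1 to 3 on the right, rows ordered by role. KO liver 2 is the lowest in most rows of the type I targets, and the rows of Gbp7, Irgm1 and Iigp1 are higher in each KO liver than in any WT liver.

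Viperin showed the largest fall of the 41 genes. Rsad2, which encodes this radical-SAM enzyme that makes a chain-terminating nucleotide against viral polymerases, had 20.9, 9.81 and 18.2 CPM in KO livers, against 76.5, 76.5 and 72.4 CPM in WT livers. The groups were far apart, with the WT livers close together. Rsad2 (chromosome 12, 26442746 to 26456452, minus strand, GRCm38) was 4.61-fold lower in KO livers (log2 -2.20 ± 0.25 SE, adjusted p = 0.00102). Its neighbour Cmpk2 (chromosome 12, 26469204 to 26479837, plus strand), a mitochondrial nucleotide kinase that supplies the substrate of viperin, had 11.6, 7.31 and 9.66 CPM in KO livers, against 22.4, 21.9 and 22.3 CPM in WT livers. Cmpk2 fell 2.33-fold (log2 -1.22 ± 0.17 SE, adjusted p = 0.00207). The drop was larger for Rsad2 in every liver: the ratio of Rsad2 to Cmpk2 CPM was 1.81, 1.34 and 1.88 in KO livers and 3.42, 3.50 and 3.25 in WT livers. The ratios did not overlap, and the exact two-sided permutation p was 0.1, the smallest that 3 livers against 3 allow (0.133 after adjustment over 4 ratios chosen after their values were seen).

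The Mx genes encode dynamin-like GTPases that trap viral nucleoproteins. Mx1, which in C57BL/6 mice carries a deletion that removes the active protein, had 2.30, 0.866 and 2.46 CPM in KO livers, against 4.17, 4.01 and 4.65 CPM in WT livers. Its groups did not overlap, and it was 2.28-fold lower in KO livers (log2 -1.19 ± 0.36 SE, adjusted p = 0.0417). The call was lost without KO liver 1 or any 1 WT liver (adjusted p 0.0711 to 0.117). Mx2 had 5.85, 4.38 and 4.63 CPM in KO livers and 7.27, 6.53 and 7.96 CPM in WT livers, also without overlap, and missed the threshold (log2 -0.55, adjusted p = 0.0612, and 0.0164 with library totals). Transcripts of Mx1 and Mx2 were 94.8% identical over 920 bases, and how reads matching both were counted is not stated in the labels.

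The 2'-5' oligoadenylate synthetases detect double-stranded RNA and make the messenger that activates RNase L. All 6 members, which lie on chromosome 5, had every KO liver below every WT liver, a pattern seen in 22.5% of all genes tested. Of the 6, 4 passed the test as lower, beside 13.1% of all genes tested. Oas1a had 5.23, 2.5 and 4.39 CPM in KO livers, against 10.5, 9.38 and 11.2 CPM in WT livers. Oas3, the largest synthetase, had 4.22, 2.65 and 3.75 CPM in KO livers, against 9.37, 7.06 and 8.52 CPM in WT livers. Both genes were lower in KO livers by a wide margin: 2.57-fold for Oas1a (log2 -1.36 ± 0.26 SE, adjusted p = 0.00736) and 2.35-fold for Oas3 (log2 -1.23 ± 0.22 SE, adjusted p = 0.00604). Oas2 had 6.38, 3.56 and 7.25 CPM in KO livers and 10.3, 9.48 and 9.96 CPM in WT livers (log2 -0.79 ± 0.25 SE, adjusted p = 0.0478). The call of Oas2 was lost without KO liver 1 or 2 or any 1 WT liver (adjusted p 0.0505 to 0.118). Oasl2, an OAS-like protein, had 12, 6.35 and 7.59 CPM in KO livers and 13, 15.5 and 15.4 CPM in WT livers (log2 -0.76 ± 0.23 SE, adjusted p = 0.043), and its call was lost without KO liver 2 or 3 or any 1 WT liver (adjusted p 0.0681 to 0.13). Oasl1, which in mice holds back the translation of IRF7, missed the threshold (log2 -0.62, adjusted p = 0.0967), and passed with no filter (0.0297) and with library totals (0.0393). Oas1g missed it as well, with 2.83, 0.962 and 2.32 CPM in KO livers and 4.53, 3.43 and 4.0 CPM in WT livers (log2 -0.97, adjusted p = 0.0851), and passed with DESeq2 (0.0445), with no filter (0.0403) and with library totals (0.0404). Oas1a and Oas1g transcripts were 97.6% identical over 1861 bases, so the division of reads between them is uncertain, and their ratio overlapped between the groups (exact permutation p = 0.2).

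The IFIT proteins bind foreign RNA ends, and their genes lie together on chromosome 19 between 34550694 and 34650009. Ifit2 alone of the 4 passed, with 11.9, 4.62 and 7.44 CPM in KO livers, against 16.3, 17.8 and 19.1 CPM in WT livers. Every KO liver was below every WT liver, and Ifit2 was 2.22-fold lower (log2 -1.15 ± 0.29 SE, adjusted p = 0.0227), a call lost without KO liver 3, WT liver 2 or WT liver 3 (adjusted p 0.0603 to 0.0734). Ifit1 had 17.5, 6.93 and 13.3 CPM in KO livers and 14.4, 17.3 and 19.6 CPM in WT livers. Ifit3 had 19.1, 7.99 and 17.1 CPM in KO livers and 16.6, 19.0 and 18.8 CPM in WT livers. For both, KO liver 2 was the lowest of all livers and KO liver 1 lay within or above the WT range, and neither passed (log2 -0.44 and adjusted p = 0.307 for Ifit1, log2 -0.30 and adjusted p = 0.473 for Ifit3). Ifit3b also overlapped (log2 -0.49, adjusted p = 0.245). Its transcript was 97.8% identical to that of Ifit3 over 1700 bases, and the printed promoter bases are identical, so the division of reads between these copies is uncertain. Within a liver the ratio of Ifit2 to Ifit3 CPM was 0.624, 0.578 and 0.435 in KO livers and 0.983, 0.941 and 1.02 in WT livers, without overlap (exact permutation p = 0.1, adjusted 0.133). Relative to its neighbour Ifit3, Ifit2 was thus lower in each KO liver than in any WT liver. This pair was chosen after the values were seen, and 0.1 is the smallest p that 3 livers against 3 allow. The ratio therefore adds no separate support, and the reads of Ifit3 are uncertain because of Ifit3b.

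ISG15 is a ubiquitin-like protein attached to other proteins during the interferon response. Isg15 had 12.4, 7.26 and 9.91 CPM in KO livers, against 19.4, 13.2 and 18.7 CPM in WT livers. The highest KO liver was just under the lowest WT liver, and Isg15 was 1.73-fold lower (log2 -0.79 ± 0.22 SE, adjusted p = 0.0327). The call was lost without KO liver 2 or 3 or WT liver 1 or 3 (adjusted p 0.0693 to 0.108), and a copy, AC151275.1, matched its transcript at 95.2% over 482 bases. Herc6, the mouse ligase for ISG15, and Usp18, which removes ISG15 and blocks signalling at IFNAR2, overlapped between the groups (log2 -0.30 and -0.40, adjusted p = 0.39 and 0.293).

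Among the transcription factors, Irf7 alone passed. Irf7, which amplifies type I interferon production, had 55.7, 22.7 and 42.7 CPM in KO livers, against 73.8, 83.3 and 80.9 CPM in WT livers. The KO livers differed among themselves by more than the WT livers did, with KO liver 2 the lowest. Irf7 was 1.96-fold lower in KO livers (log2 -0.97 ± 0.27 SE, adjusted p = 0.0332), a call lost without KO liver 3 or any 1 WT liver (adjusted p 0.0652 to 0.0964). It shares 45 exonic bases with Phrf1 on the opposite strand, and whether counting used strand is not stated in the labels. Stat2 and Irf9, which act together in the type I complex, overlapped between the groups (log2 0.13 and 0.19, adjusted p = 0.575 and 0.402).

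**Figure D4:**
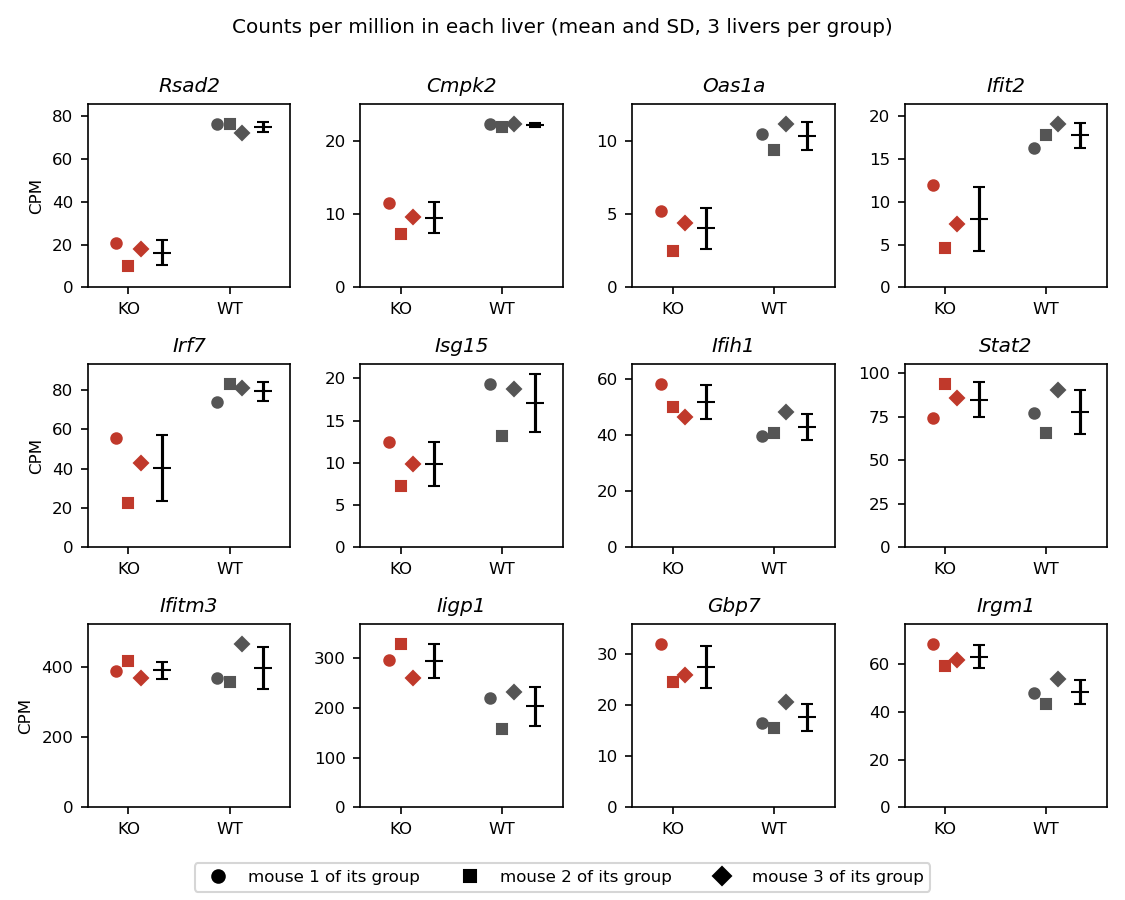
CPM of 12 selected interferon-stimulated genes in each liver, with KO points left of WT points, one marker shape per mouse number within a group, and a bar for the mean and SD of 3 livers; the vertical axes start at 0. Rsad2, Cmpk2, Oas1a and Irf7 have every KO liver below every WT liver, and Gbp7 and Iigp1 have every KO liver above every WT liver.

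None of the 4 nucleic acid sensors passed, and 3 of the 4 had a positive log2 fold change. Ifih1 (MDA5), which recognises long double-stranded RNA, had 58.3, 50.2 and 46.6 CPM in KO livers and 39.8, 40.7 and 48.3 CPM in WT livers, so KO liver 3 lay below WT liver 3 (log2 0.27, adjusted p = 0.172). Ddx58 (RIG-I), the sensor of uncapped RNA ends, and Dhx58 (LGP2), a regulator of both, had log2 fold changes of 0.26 and 0.24 (adjusted p = 0.272 and 0.357). Zbp1, a sensor of Z-form nucleic acids that can trigger necroptosis, had 12.2, 6.98 and 10.6 CPM in KO livers and 18.5, 9.62 and 16.7 CPM in WT livers (log2 -0.59, adjusted p = 0.159). The groups of all 4 sensors overlapped.

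The membrane proteins were the most abundant members per transcript length. Ifitm3, which blocks the fusion of viruses with endosomes, averaged 576 ± 36 RPKM in KO livers and 586 ± 88 RPKM in WT livers (SD, n = 3 each). In CPM, Ifitm3 had 387, 417 and 369 in KO livers and 368, 357 and 466 in WT livers, overlapping groups with a log2 fold change of -0.02 (adjusted p = 0.925). Bst2 (tetherin), which holds budding viruses at the cell surface, had 139, 111 and 148 CPM in KO livers, against 152, 211 and 229 CPM in WT livers. The groups nearly touched, and Bst2 was 1.48-fold lower (log2 -0.57 ± 0.18 SE, adjusted p = 0.0485). The call was lost without any 1 KO liver or without WT liver 2 or 3 (adjusted p 0.057 to 0.167), and with RLE size factors (0.0514). By length, Bst2 averaged 147 ± 21 RPKM in KO livers and 219 ± 45 RPKM in WT livers, whereas Rsad2 averaged 3.76 ± 1.3 RPKM in KO livers and 17.3 ± 0.55 RPKM in WT livers. Per length, Rsad2 was thus far below Ifitm3 and Bst2 in both groups.

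Of the other 7 type I targets, 2 were lower in KO livers (28.6%, beside 13.1% of all genes tested). Ifi27l2a, a small mitochondrial membrane protein, had 6.62, 2.79 and 5.08 CPM in KO livers, against 9.29, 10.5 and 9.83 CPM in WT livers (log2 -1.03 ± 0.28 SE, adjusted p = 0.0288). Trim30a, which in mice restrains inflammatory signalling through TRAF6, had 11.9, 7.17 and 10.7 CPM in KO livers, against 19.0, 14.9 and 16.4 CPM in WT livers (log2 -0.76 ± 0.20 SE, adjusted p = 0.0251). Neither gene's groups overlapped. The call of Ifi27l2a was lost without KO liver 3 or any 1 WT liver (adjusted p 0.0585 to 0.0897), and that of Trim30a without WT liver 1 or 3 (0.0821 and 0.0674). Ifi44, Rtp4, Parp14, Xaf1 and Ifi35 overlapped between the groups, with log2 fold changes of -0.62 to 0.18. Parp14, a mono-ADP-ribosyltransferase, had 66.8, 47.1 and 57.4 CPM in KO livers and 55.8, 61.6 and 69.3 CPM in WT livers.

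None of the 7 GTPase genes followed here was lower in KO livers, beside 13.1% of all genes tested. Of the 3 IRGs among them, 1 was higher, beside 11.9% of all genes tested. Among 13 further GBP and IRG genes, 1 (Gbp9) was lower and 0 were higher, with a median log2 fold change of -0.28. The IRG proteins load onto vacuoles that hold parasites and bacteria. Iigp1 (Irga6), on chromosome 18, had 296, 330 and 261 CPM in KO livers, against 220, 158 and 233 CPM in WT livers. The highest WT liver was below the lowest KO liver, and Iigp1 was 1.45-fold higher in KO livers (log2 0.54 ± 0.17 SE, adjusted p = 0.0491). The call was lost without KO liver 1 or 2 or any 1 WT liver (adjusted p 0.0506 to 0.121), with the stricter count filter (0.0538), and with scaling by library totals (log2 0.28, adjusted p = 0.183). Igtp (Irgm3), a regulator of the other IRG proteins, had 56.5, 37.5 and 52.3 CPM in KO livers and 27.8, 32.4 and 40.9 CPM in WT livers (log2 0.54 ± 0.19 SE, adjusted p = 0.0746). Its groups overlapped through KO liver 2 and WT liver 3, and it passed without either of them (adjusted p = 0.0247 and 0.0461), with no filter (0.0285) and with DESeq2 (0.0463). Irgm1, a second regulator that guards host membranes, had 68.7, 59.3 and 61.7 CPM in KO livers and 48.2, 43.4 and 53.8 CPM in WT livers. Its groups did not overlap, and it missed the threshold narrowly (log2 0.38 ± 0.12 SE, adjusted p = 0.0503; 0.0355 with DESeq2, 0.0436 with limma-voom, 0.0488 with RLE size factors and 0.045 without WT liver 3). Igtp shares 162 exonic bases with Irgm2 on the same strand.

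The 4 GBPs lie together on chromosome 3 between 142493978 and 142638008, and they split. Gbp7 had 32.0, 24.4 and 25.9 CPM in KO livers, against 16.6, 15.5 and 20.6 CPM in WT livers. Every KO liver was above every WT liver, and Gbp7 was 1.56-fold higher (log2 0.64 ± 0.15 SE, adjusted p = 0.0188). The call was lost without KO liver 1, WT liver 1 or WT liver 2 (adjusted p 0.0573 to 0.069) and with scaling by library totals (log2 0.39, adjusted p = 0.0943). A processed pseudogene, Gm43802, overlaps 637 of its exonic bases on the same strand. Gbp5, which promotes inflammasome assembly in macrophages, had 1.87, 1.2 and 2.61 CPM in KO livers and 2.94, 3.29 and 3.22 CPM in WT livers. Its values ran the other way without overlap, and it did not pass (log2 -0.73 ± 0.30 SE, adjusted p = 0.112, and 0.047 with library totals). Gbp2 had 11.0, 6.83 and 17.9 CPM in KO livers and 14.9, 15.6 and 15.4 CPM in WT livers, and Gbp3 had a log2 fold change of 0.09 (adjusted p = 0.409 and 0.736). Without KO liver 3, which had the highest Gbp2 and Gbp5 of the KO livers, both were lower (adjusted p = 0.0376 and 0.0457). Within a liver the ratio of Gbp5 to Gbp7 CPM was 0.0585, 0.0493 and 0.101 in KO livers and 0.178, 0.212 and 0.156 in WT livers (exact permutation p = 0.1, adjusted 0.133). The groups of both genes had already separated, in opposite directions. The ratio, chosen after these values were seen, therefore had to separate too and adds no support. Per length the most abundant GTPase was Iigp1, at 50.8 ± 5.9 RPKM in KO livers and 35.0 ± 6.8 RPKM in WT livers, and the least was Gbp5, at 0.285 ± 0.11 RPKM in KO livers and 0.474 ± 0.028 RPKM in WT livers.

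The ligands were nearly absent from the counts 9 hours after gavage. Of 21 interferon genes, 19 had 0 counts in all 6 livers, where 3 counts would be 0.119 to 0.148 CPM in a library. Ifng had 0, 0 and 2 counts in KO livers and 0, 0 and 2 counts in WT livers, and Ifnk had 7, 1 and 1 counts in KO livers and 3, 0 and 4 counts in WT livers. A difference in ligand RNA was not detectable at this depth.

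The receptors of interferon-gamma and interferon-lambda were lower in KO livers, and those of type I interferon did not pass. Ifngr1, the ligand-binding chain for interferon-gamma, had 31.6, 27.3 and 27.6 CPM in KO livers, against 58.6, 65.1 and 53.6 CPM in WT livers. It was 2.05-fold lower (log2 -1.03, adjusted p = 0.0012), with groups far apart. Ifngr2 (log2 -0.41, adjusted p = 0.0249), Ifnlr1 (log2 -1.57, adjusted p = 0.0161) and Il10rb (log2 -0.64, adjusted p = 0.0445) were lower as well, the last a chain shared with the interleukin-10 receptor. Ifnlr1 was sparse, with 8, 5 and 9 counts in KO livers and 26, 24 and 23 counts in WT livers. The calls of Ifngr2 and Il10rb were each lost without any 1 liver (adjusted p up to 0.0879 and 0.145), and that of Ifnlr1 without KO liver 1 or WT liver 2 (0.0537 and 0.0612). The number of lower receptors, 4 of 6 (66.7%, beside 13.1% of all genes), was 1 or 2 with any 1 liver left out. Ifnar1 and Ifnar2 had log2 fold changes of -0.26 and 0.10 (adjusted p = 0.152 and 0.638). For Ifnar1 every KO liver was still below every WT liver, a pattern seen in 22.5% of all genes tested. Of the 5 JAK and STAT genes, Jak2 alone was lower (log2 -0.53, adjusted p = 0.0223), a call lost without KO liver 1 or 2 or WT liver 1 or 3 (adjusted p 0.0512 to 0.0838).

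Of the 7 inhibitors of JAK and STAT signalling, 0 passed with the settings used throughout, and 4 had an unadjusted p under 0.05. Of the 4, Cish was higher, named after its value was seen (log2 0.96, adjusted p = 0.104), and its groups overlapped. Socs3, a feedback inhibitor, had 7.24, 12 and 14.2 CPM in KO livers and 50.4, 14.3 and 22.5 CPM in WT livers (adjusted p = 0.0507), with WT liver 1 far above the rest. Socs3 passed as lower without WT liver 2 (adjusted p = 0.0249), with no filter (0.00142), with the stricter count filter (0.0491) and with library totals (0.0217). Ptpn11 had a log2 fold change of -0.32 (adjusted p = 0.0865, and 0.0139 with library totals). The pathway that induces interferon showed 7 of 15 tested genes lower (46.7%, beside 13.1% of all genes) and 1 higher (beside 11.9%). The lower genes included Irf5 (log2 -0.79), Tlr7, the endosomal sensor of single-stranded RNA (log2 -1.36), and Irf8, a factor of myeloid and dendritic cells (log2 -1.0). The higher one was Mavs, the mitochondrial adaptor of RIG-I and MDA5, with 130, 122 and 120 CPM in KO livers, against 71.6, 77.8 and 87.2 CPM in WT livers (log2 0.65, adjusted p = 0.00548).

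**Figure D5:**
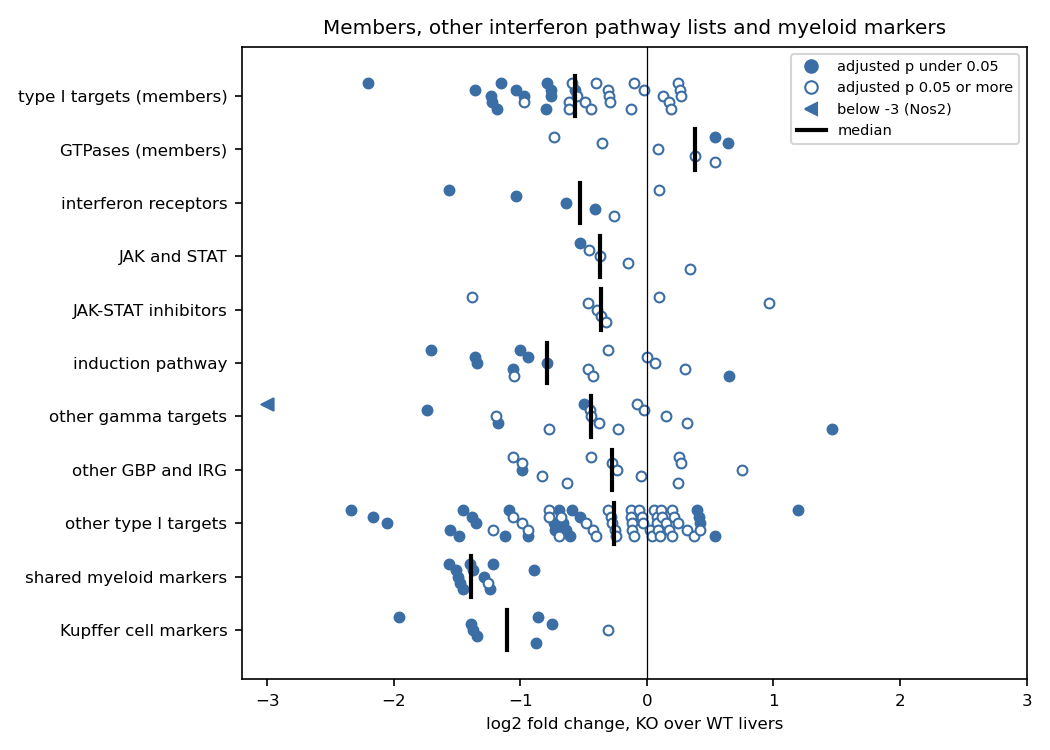
Log2 fold changes (KO over WT) of the tested genes in the 2 classes, in the interferon receptor, signalling, induction and target lists and in the myeloid marker lists, with filled points for genes that passed, a bar at each list's median and a triangle for Nos2, which had no counts in KO livers and lies beyond the axis. The medians of the receptors and of the induction pathway are -0.53 and -0.79, and that of all genes tested is -0.01.

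Interferon targets outside the 41 genes were called in both directions. Among 66 further type I targets, 19 were lower (28.8%, beside 13.1% of all genes tested). The 5 that were higher were a smaller share than the 11.9% of all genes tested. The median log2 fold change was -0.26, and the lower count was 10, 12 and 11 without WT liver 1, 2 or 3. The higher count was 3 without KO liver 2 or WT liver 1, and 2 without KO liver 1, WT liver 2 or WT liver 3. Lower genes included Ms4a4c, at 0.623, 0.289 and 0.246 CPM in KO livers against 1.87, 1.79 and 1.61 CPM in WT livers, and Ifi207 (log2 -1.45) and Slfn5 (log2 -0.66). The strongest of the higher ones was Gm4951, a relative of Iigp1 also on chromosome 18, with 77.0, 74.8 and 94.8 CPM in KO livers, against 35.9, 31.5 and 40.7 CPM in WT livers (log2 1.19, adjusted p = 0.00124). The other 4, named after their values were seen to complete the count, were Dtx3l (log2 0.53), Nmi (0.42), Lgals9 (0.41) and Parp9 (0.40). The calls of Nmi (adjusted p up to 0.102), Lgals9 (up to 0.112) and Parp9 (up to 0.12) were lost when 1 of several single livers was left out (all but KO liver 2 for Nmi, KO liver 3 for Lgals9 and WT liver 1 for Parp9), and with library totals that of Dtx3l was lost too (0.0931).

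Among 13 further GBP and IRG genes, 1 was lower (7.69%, beside 13.1% of all genes) and 0 were higher, with a median of -0.28. The lower gene was Gbp9, at 7.38, 5.77 and 7.69 CPM in KO livers against 11.5, 13.8 and 15.9 CPM in WT livers (adjusted p = 0.00624). Gm4951, which was higher, was counted among the further type I targets and not here. The lower count was 3 without KO liver 1 and 2 without KO liver 2 or 3. Among 15 further interferon-gamma targets, 4 were lower (26.7%, beside 13.1% of all genes) and 1 higher (beside 11.9%), with a median of -0.44. Nos2, the inducible nitric oxide synthase, had 0 counts in all KO livers and 28, 12 and 31 counts in WT livers, at least 6.97-fold lower against a floor of 3 counts per library. Cxcl10, a chemokine for T cells, had 5.90, 3.03 and 7.69 CPM in KO livers, against 14.0, 18.5 and 23.0 CPM in WT livers (log2 -1.74, adjusted p = 0.00652). Ifi30, a lysosomal thiol reductase of antigen-presenting cells, was lower too (log2 -1.17, adjusted p = 0.0157), as was Wars (log2 -0.50), and their calls were lost without KO liver 1 (adjusted p = 0.0572 and 0.0655), that of Wars also without KO liver 2 or 3 or WT liver 1 or 2, so that 2 of the 4 remained without KO liver 1. Cxcl11 was the higher one, with 3.69, 4.57 and 2.46 CPM in KO livers against 0.794, 1.5 and 1.61 CPM in WT livers (log2 1.46, adjusted p = 0.0186, and 0.0574 without KO liver 1).

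Markers of myeloid cells were lower in KO livers, as 13 of the type I targets and 13.1% of all genes tested were. The 12 shared myeloid markers, of which Cd68 alone did not pass, summed to 207.2, 140.3 and 285.6 CPM in KO livers, against 541, 467.8 and 458.7 CPM in WT livers. Kupffer cell markers were lower for 7 of 8 genes (238.5 to 517.4 CPM in KO livers, 795.4 to 858.1 CPM in WT livers), and monocyte markers for 7 of 8 (10.98 to 14.74 CPM in KO livers, 31.24 to 67.87 CPM in WT livers). The neutrophil list had 4 of 6 tested genes lower, with sums of 3.16 to 8.28 CPM in KO livers and 15.1 to 29.8 CPM in WT livers. The Kupffer count was 3 without KO liver 1 and 4 without WT liver 1 or 2, and the neutrophil count was 2 without KO liver 1 or WT liver 1. In KO livers 1, 2 and 3 the median type I target stood at -0.23, -1.13 and -0.42. In these livers the shared myeloid sum was 207.2, 140.3 and 285.6 CPM, and the Kupffer sum 403.4, 238.5 and 517.4 CPM, both lowest in KO liver 2. The monocyte sum was 10.98, 11.07 and 14.74 CPM, and the neutrophil sum 3.16, 5.92 and 8.28 CPM, both lowest in KO liver 1. The part of these cells in the interferon results was not tested.

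Markers of the cells that make interferon were sparse. For plasmacytoid dendritic cells, the professional producers of type I interferon, 4 of 8 markers were tested. Of these, Ly6d and Runx2 were lower (50%, beside 13.1% of all genes tested), and Siglech and Tcf4 did not pass (adjusted p = 0.105 and 0.904). Runx2 had only 5, 2 and 4 counts in KO livers and 12, 24 and 18 counts in WT livers. The 8 markers summed to 29.5 to 105 CPM in KO livers and 175 to 322.7 CPM in WT livers. The number of lower markers, 2 with all livers, was 1 without KO liver 1, KO liver 2 or WT liver 3, and 0 without WT liver 2. Most of that sum was Ly6d, and the defining marker Siglech had 5, 6 and 13 counts in KO livers and 11, 28 and 31 counts in WT livers. Of the markers of T and NK cells, which make interferon-gamma, 0 of the 3 tested out of 10 passed, with overlapping sums of 3.27 to 5.42 CPM in KO livers and 4.30 to 5.74 CPM in WT livers, and Cd3e had 4, 7 and 9 counts in KO livers and 8, 9 and 18 counts in WT livers. Endothelial markers passed for 0 of 8 (2 lower without KO liver 2), with overlapping sums of 220.4 to 334.6 CPM in KO livers and 268.5 to 313.1 CPM in WT livers. Hepatocyte markers passed in the higher direction for 4 of 9 genes (Ttr, Cps1, Cyp2e1 and Serpina1c), beside 11.9% of all genes tested, and for 2 without WT liver 1. The part of these in the levels of the GTPase genes was not tested.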

How the data were processed

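Per the labels' protocols, poly-T selected RNA of whole liver was reverse transcribed with random hexamers. The authors deposited raw counts of reads for each Ensembl gene, and each mouse has a column. The submitters' processing notes name the tools featureCounts 1.5.0-p3, HISAT2 2.0.5 and StringTie 1.3.3b and the build GRCm38.p6. Roles, strand setting, treatment of reads matching several places and annotation release are not given in the sources used here. Genes were matched to GENCODE M21 (54495 of 54532).

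All 6 columns were fitted with edgeR 4.0.16 in R 4.3.3: filterByExpr by group, TMM scaling, the quasi-likelihood test without covariates, and Benjamini-Hochberg adjustment over 14758 genes. A gene was called lower or higher at an adjusted p under 0.05, and the standard error (SE) was the log2 fold change over the square root of F. CPM used TMM-scaled totals, and RPKM divided CPM by summed exon length. The SE and SD include the spread between livers, whereas floors (3 counts) cover counting error only. Ratios between genes were compared by exact two-sided permutation. Close copies were sought with blastn 2.17.0. Plots used matplotlib 3.10.9 (Python 3.11.15).

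The 41 genes, their classes and the other lists were chosen with earlier results of these data known. All 41 could be named, and from each other list up to 4 genes with the smallest p, or 2 where none passed, except where the text says otherwise. Alternatives were DESeq2 1.42.0, limma-voom (limma 3.58.1), RLE factors, library totals, other filters, a stricter threshold, the mouse number as a block, and leaving out each library. The same settings for the other pathway lists were added after seeing the data. Tested on simulated counts of this comparison (5 draws, 14516 to 14544 genes), the fit recovered 12.8% of 1.5-fold, 62.4% of 2-fold and 92.7% of 4-fold changes, and 6.84% of its calls were false. Far fewer genes were changed in each draw than the 25% that passed in the data, so these rates need not carry over to the data. Replicate libraries differed beyond counting noise, so none was counted as a repeat.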

Additional observations from a re-analysis of the deposited data

How the results depend on the processing

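Type I targets were higher in 0 cases under every setting run, and none of the 15 called genes changed sign; 4 passed in all 13 alternatives at the same threshold. With 1 library left out, 4 to 10 of all 41 genes and 4 to 10 type I targets were lower, 0 to 3 of the 41 were higher, and 0 to 2 GTPase genes were lower and 0 to 3 higher. In these fits 7.78% to 12.1% of all genes tested were lower and 7.21% to 10.4% higher. The higher count, 2 in the report, was 4 with DESeq2, 1 with genes kept at 50 counts or more in 3 libraries, 1 with the replicate block and 0 with library totals, for all genes and GTPases alike; library totals also called 1 GTPase gene, Gbp5, lower. At an adjusted p under 0.01, 4 of the 41 genes, all type I, were lower and 0 higher, beside 5.36% and 4.91% of all genes tested. Scaling by library totals moved the median of all genes to -0.26 and the split of calls to 25.1% lower and 6.13% higher. Lower counts in the other lists then were 6 for further GBP and IRG genes (1 in the report, 4 with limma-voom), 28 for further type I targets (19), 3 for JAK and STAT genes (1), 4 for their inhibitors (0) and 3 for endothelial markers (0), and 1 further type I target was higher (5). The GTPase median was then 0.13 and the type I median -0.82. Genes that missed the test changed sign as follows. With library totals they were Irf1 (-0.15), Irf9 (-0.058), Stat2 (-0.13), Ifi35 (-0.075) and Gbp3 (-0.16). With libraries left out, log2 values ran from -0.041 (without KO liver 3) to 0.32 for Irf1, from -0.054 (without KO liver 1) to 0.20 for Gbp3, which was -0.0012 without WT liver 1, from -0.077 to 0.13 (without WT liver 3) for Ifitm3, and, with the highest value without KO liver 2, from -0.53 to 0.0058 for Ifit3, from -0.25 to 0.0017 for Parp14 and from -0.30 to 0.043 for Xaf1. The cause was not tested. The mouse numbers did not pair the livers (correlations of deviations of -0.03, 0.04 and -0.02). With them as a replicate block 12 type I targets were lower, 11 of them among the 13: Bst2 (adjusted p = 0.068), Oasl2 (0.0628) and the GTPase gene Iigp1 (0.0942) did not pass, and Zbp1 did (log2 -0.57, adjusted p = 0.0298). Depth limits the ligands, where a difference was not detectable.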
